A study of Mus musculus with 4 samples.

Results

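Marker genes of mature granule cells of the dentate gyrus were followed in hippocampal RNA after chronic fluoxetine. The set was Calb1, Tdo2, Dsp, Prox1, Stxbp6, Dock10, Npnt, Rasl10a, Lct and Il16, and every probeset whose only annotated symbol was one of these 10 genes was taken, which gave 28 of the 45101 probesets in the table. All animals were DBA/2J males, an inbred mouse strain, 8 to 10 weeks old by the labels. The fluoxetine group drank water with fluoxetine, an antidepressant that blocks serotonin reuptake, at 18 mg/kg per day for 21 days, and the control group drank untreated water (0 mg/kg per day). Each group had 12 mice, whose hippocampal RNA made up 2 pools of 6, with 1 array (Affymetrix Mouse Genome 430 2.0) for each pool. Thus n is 2 pools per group, and the spread between single mice is not seen. The labels do not say whether the arrayed mice had also gone through the tail suspension test of the study.

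Granule cells are the principal excitatory neurons of the dentate gyrus. They receive the main input from the entorhinal cortex, send mossy fibres to field CA3, and are among the few neurons that are still born in the adult rodent brain. A newborn granule cell passes through immature stages before it acquires calbindin and the other genes of the mature cell. Marker genes of this kind are not all exclusive to it: calbindin is also made by pyramidal cells of field CA1 and by some interneurons, and Prox1 also marks a class of interneurons. The arrays measured whole hippocampus, so fewer granule cells and less RNA per granule cell cannot be told apart.

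Intensities are the authors' GCRMA values on a linear scale. A probeset was tested if it reached an intensity of 100 on at least 2 of the 4 arrays, the minimum the submitters name for expression above background. Of the 28 probesets 14 were tested, and they covered 8 of the 10 genes. Tdo2 and Il16 had no tested probeset. Of the 14 that were not tested, 9 stayed under 20 on all 4 arrays and the highest value on any array was 91.0.

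The markers moved in both directions. By limma, with p-values of the 16938 tested probesets adjusted together by Benjamini-Hochberg, 3 of the 14 passed as lower in fluoxetine pools, both of Dsp and 1 of Calb1, where 0.685% of all tested probesets did. Rasl10a passed as higher, 1 of 14, where 1.03% of all tested probesets did. The remaining 10 did not pass, so that 4 of 14 passed in either direction, where 1.72% of all tested probesets did. An unadjusted p under 0.05 was found for 10 of the 14, where 22.5% of all tested probesets had one. At each gene's brightest tested probeset 1 of 8 genes was called lower and 1 higher, where 0.554% and 1.31% of 9030 tested genes were (1.86% in either direction). Among the 8 genes 4 had a log2 fold change below 0 and 4 above 0, and their median was -0.09, beside -0.03 over all tested genes. In 10 of the 14 probesets the fluoxetine and the control arrays did not overlap, which was also true of 56.0% of all tested probesets. Fluoxetine was lower in 7 of these (34.2% of all tested probesets) and higher in 3 (21.9%). By gene 6 of 8 did not overlap at the brightest probeset, where 56.3% of all tested genes did not, and 4 of these were lower in fluoxetine pools, where 32.7% were. The calls rested on all 4 arrays: with any 1 left out, limma called 0 of the 16938 probesets, the lowest adjusted p among the markers was 0.127, and 9 to 12 of the 14 had an unadjusted p under 0.05. Without the intensity filter, with a minimum of 50 or with the pool number as a block, limma called 0 of the markers, with 10 at an unadjusted p under 0.05 each time. With 2 arrays against 2, the smallest two-sided p of an exact permutation test is 0.333.

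**Figure D1:**
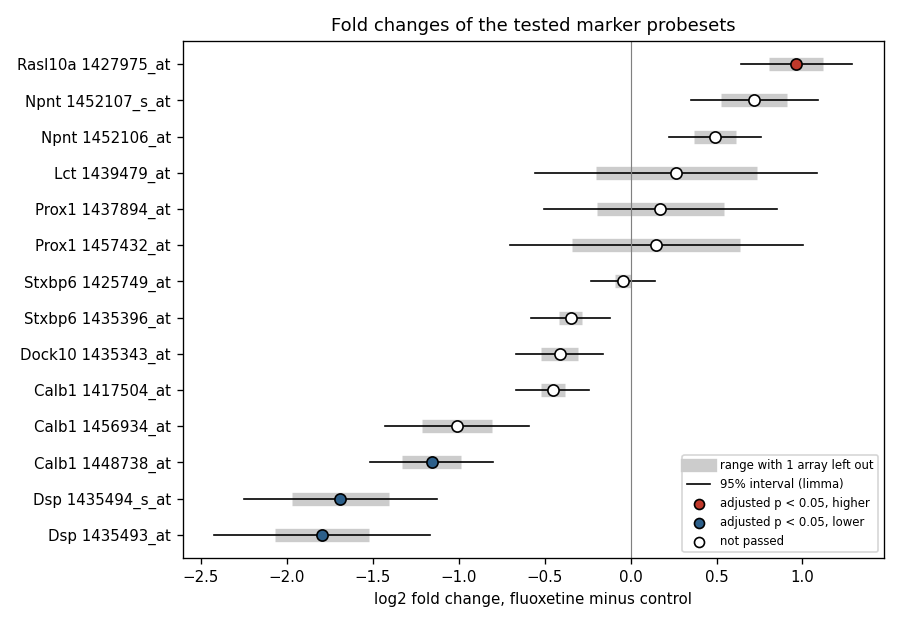
Log2 fold change (fluoxetine minus control, x axis) of the 14 tested probesets of the marker genes (y axis), with the 95% interval from limma as a line and the range obtained when 1 array was left out as a grey bar. Filled points passed an adjusted p of 0.05: Rasl10a lies at 0.96, both Dsp probesets at -1.79 and -1.69 and 1 Calb1 probeset at -1.16. The bars of Lct, of both Prox1 probesets and, barely, of the dimmer Stxbp6 probeset (1425749_at) cross 0.

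Dsp encodes desmoplakin, which ties intermediate filaments to desmosomal junctions and is strongly transcribed in the dentate granule layer of the mouse. Its brighter probeset (1435493_at) read 246 and 179 in fluoxetine pools 1 and 2, against 880 and 602 in control pools 1 and 2. Both fluoxetine pools lay far under both control pools, and the geometric means were 210 in fluoxetine and 728 in control pools. Its log2 difference was -1.79 ± 0.24 (limma SE with 2 pools a group, adjusted p = 0.0495 by limma), or 3.47-fold lower in fluoxetine pools. The other tested probeset (1435494_s_at) gave 220 and 179 in fluoxetine pools and 779 and 526 in control pools. It fell by 1.69 ± 0.22 on the log2 scale (adjusted p = 0.0463 by limma), so the 2 probesets moved alike. Their log2 difference from each other changed by 0.11 between the groups. A further Dsp probeset (1427610_at) was not tested, with 6.81 and 6.98 in fluoxetine and 7.07 and 9.24 in control pools. Dsp was the only gene of the set whose fall exceeded 2-fold at its brightest tested probeset. By probeset 4 of 14 were at least 2-fold lower, both of Dsp and 2 of Calb1, where 0.124% of all tested probesets were. At least 2-fold higher were 0 of 14, where 0.667% of all tested probesets were.

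The promoter windows of Dsp and Rasl10a, whose brightest probesets passed in opposite directions, are given here, each as the 250 bases before the transcription start in RefSeq (GRCm38.p6). Dsp lies at chr13:38151044-38151293 and Rasl10a at chr11:5057878-5058127, both on the plus strand, and capitals mark every GGGCGG (the GC box) and CANNTG (the E-box, which proneural factors bind) on either strand.
Dsp: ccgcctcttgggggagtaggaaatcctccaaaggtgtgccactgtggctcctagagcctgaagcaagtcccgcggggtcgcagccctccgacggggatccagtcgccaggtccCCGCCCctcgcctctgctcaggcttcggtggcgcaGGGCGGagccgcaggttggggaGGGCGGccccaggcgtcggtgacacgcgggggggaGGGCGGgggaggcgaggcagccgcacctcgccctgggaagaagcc
Rasl10a: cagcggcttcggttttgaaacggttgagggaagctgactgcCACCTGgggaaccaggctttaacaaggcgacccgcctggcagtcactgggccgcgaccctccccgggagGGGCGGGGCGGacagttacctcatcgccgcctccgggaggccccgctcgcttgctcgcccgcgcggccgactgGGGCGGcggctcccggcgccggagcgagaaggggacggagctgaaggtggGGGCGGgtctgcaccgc

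Both windows are 72.4% G or C and hold 4 GC boxes each, of which a pair overlaps in Rasl10a. The window of Rasl10a has 1 E-box and that of Dsp has 0. Neither holds TGACG, the core of the cAMP response element, or TGANTCA, the AP-1 motif. Over 32841 promoter windows of the same length, 32.7% held a GC box, 66.2% an E-box, 17.8% TGACG and 6.75% TGANTCA. Of the 10 marker genes 9 had a window in the RefSeq table, 14 windows in all, and among them only 1 window of Npnt held TGACG and only 1 of Il16 held TGANTCA. These are matches of letters and not binding sites.

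Calb1 encodes calbindin D28k, a cytosolic calcium buffer and the usual protein marker of the mature granule cell. Its brightest probeset (1417504_at) read 3488 and 3843 in fluoxetine pools 1 and 2, against 5157 and 4876 in control pools. Both fluoxetine pools were under both control pools, at a log2 difference of -0.45 ± 0.08 with a 95% interval of -0.67 to -0.24 that did not pass (adjusted p = 0.0771 by limma). A dimmer probeset (1448738_at) had 145 and 183 in fluoxetine and 384 and 344 in control pools. This one fell by 1.16 ± 0.14 on the log2 scale, 2.23-fold (adjusted p = 0.0436 by limma). The next (1456934_at) had 114 and 151 in fluoxetine and 283 and 246 in control pools, a log2 difference of -1.01 ± 0.16 (adjusted p = 0.0660 by limma) that did not pass.

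All 3 tested Calb1 probesets thus had every fluoxetine pool under every control pool, but they differed in size. Relative to the brightest one, the log2 value of 1448738_at was -4.59 and -4.39 in fluoxetine pools and -3.75 and -3.82 in control pools, and that of 1456934_at was -4.94 and -4.67 in fluoxetine and -4.19 and -4.31 in control pools. The groups did not overlap in these differences, whose means changed by -0.70 and -0.56 (fluoxetine minus control) and were not tested. The annotation gives 1417504_at and 1448738_at the same source sequence. A mean over the 3 probesets put Calb1 at -0.87 on the log2 scale. Another Calb1 probeset (1458836_at) was too dim to test, with 5.77 and 7.12 in fluoxetine and 7.16 and 12.3 in control pools.

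**Figure D2:**
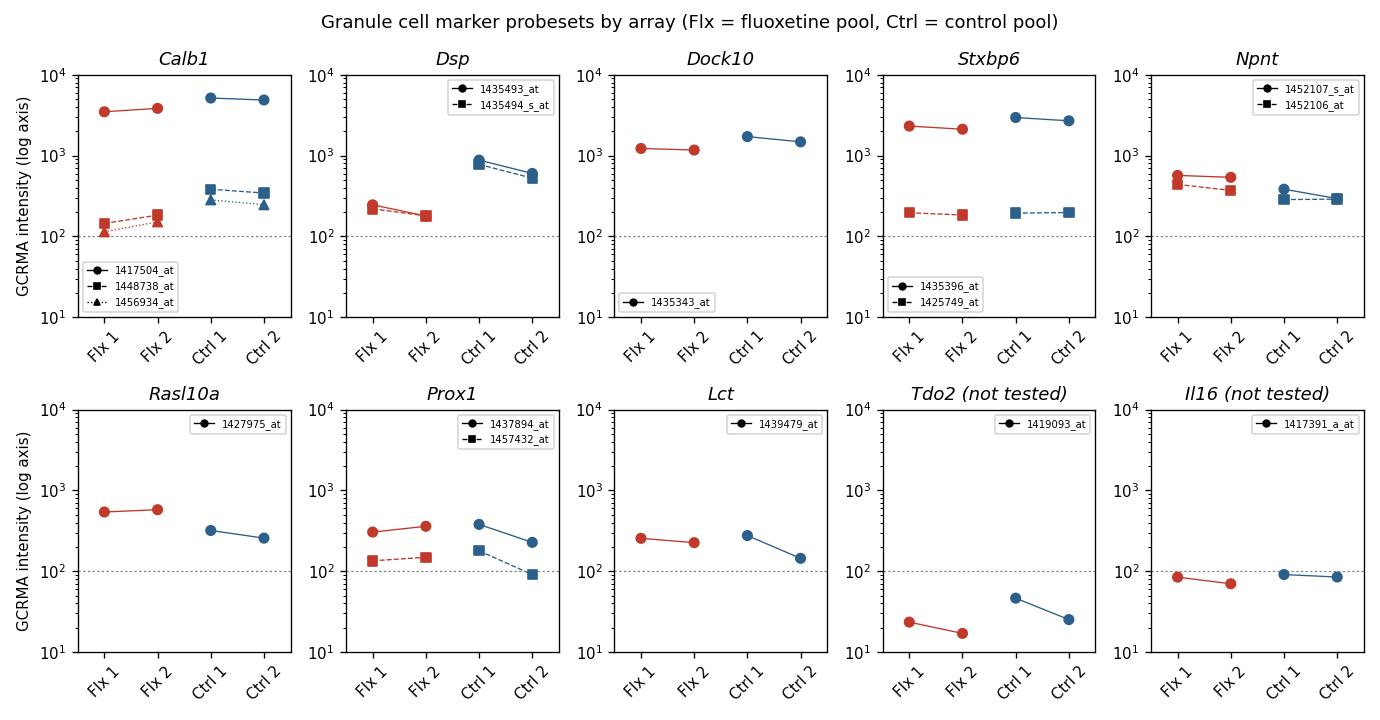
Intensity (log axis) of every tested probeset of the marker genes on each of the 4 arrays, fluoxetine pools in red and control pools in blue, with 1 marker shape per probeset and the minimum of 100 as a dashed line. Tdo2 and Il16 are shown at their brightest probeset, which was not tested. Dsp and Calb1 are lower in both fluoxetine pools, and Rasl10a and Npnt are higher. Prox1 and Lct overlap, with both fluoxetine pools between control pool 2 and the higher control pool 1.

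Dock10 and Stxbp6 were lower in both fluoxetine pools without passing. Dock10 encodes a guanine nucleotide exchange factor. It read 1226 and 1172 in fluoxetine and 1719 and 1480 in control pools (1435343_at), with a log2 difference of -0.41 ± 0.10, a 95% interval of -0.66 to -0.16 and an adjusted p of 0.110 by limma. Its other probeset (1439247_at), not tested, had 41.1 and 39.5 in fluoxetine and 65.4 and 41.9 in control pools. Stxbp6 encodes amisyn, a SNARE-domain protein that binds syntaxin and restrains vesicle fusion. Its brightest probeset (1435396_at) gave 2321 and 2121 in fluoxetine and 2961 and 2695 in control pools, a log2 difference of -0.35 ± 0.09 with a 95% interval of -0.58 to -0.12 (adjusted p = 0.122 by limma). The dimmer Stxbp6 probeset (1425749_at) overlapped between the groups, with 196 and 184 in fluoxetine and 194 and 198 in control pools. Its log2 difference was -0.04 ± 0.07, with a 95% interval of -0.23 to 0.14 (adjusted p = 0.754 by limma), so the lower values of the first probeset were not seen with this one.

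Rasl10a and Npnt were higher in fluoxetine pools. Rasl10a encodes a small Ras-like GTPase and had 1 probeset (1427975_at), which read 540 and 577 in fluoxetine and 319 and 257 in control pools. Its groups did not overlap, and it rose by 0.96 ± 0.12 on the log2 scale, 1.95-fold (adjusted p = 0.0466 by limma). Npnt encodes nephronectin, a secreted matrix protein that binds integrin alpha8 beta1. Its brightest probeset (1452107_s_at) had 569 and 539 in fluoxetine and 384 and 294 in control pools, a log2 difference of 0.72 ± 0.14 with a 95% interval of 0.35 to 1.09 that did not pass (adjusted p = 0.0865 by limma). The second Npnt probeset (1452106_at) had 440.0 and 371 in fluoxetine and 286 and 289 in control pools, a log2 difference of 0.49 ± 0.10 (adjusted p = 0.0925 by limma). Both Npnt probesets thus had every fluoxetine pool above every control pool. The 3 other Npnt probesets lay between 4.41 and 7.79 on all arrays.

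Prox1 and Lct did not separate the groups. Prox1 encodes the homeodomain transcription factor that sets and maintains granule cell identity. Its brightest probeset (1437894_at) read 305 and 360 in fluoxetine pools and 380 and 227 in control pools. The fluoxetine values fell between the 2 control values, and the log2 difference was 0.17 ± 0.26 with a 95% interval of -0.50 to 0.85 (adjusted p = 0.728 by limma). The second Prox1 probeset (1457432_at) showed the same order of arrays, with 135 and 149 in fluoxetine and 179 and 90.9 in control pools (log2 0.15 ± 0.33, adjusted p = 0.816 by limma). A dim one (1421336_at), not tested, had 59.3 and 37.8 in fluoxetine and 36.8 and 25.6 in control pools. Lct encodes lactase, the intestinal disaccharidase, whose transcript is also a dentate marker in the mouse. It read 255 and 226 in fluoxetine and 276 and 144 in control pools (1439479_at), a log2 difference of 0.27 ± 0.31 with a 95% interval of -0.56 to 1.09 (adjusted p = 0.652 by limma). The intervals of both genes extend to both sides of 0, so neither direction was shown.

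The 2 control pools differed from each other in these markers. All 8 tested genes read lower in control pool 2 than in control pool 1 at their brightest probeset, as did 55.4% of 9030 genes, and their median difference was -0.35 on the log2 scale beside -0.01 over all tested genes. Lct was 1.91-fold and Prox1 1.67-fold higher in control pool 1 than in control pool 2, so 2 of 8 genes were past 1.5-fold, where 0.399% of all tested genes were in that direction and 0.808% in either. Dsp (1.46-fold), Npnt (1.31-fold) and Rasl10a (1.24-fold) followed, and Dock10 (1.16-fold), Stxbp6 (1.10-fold) and Calb1 (1.06-fold) differed least. The fluoxetine pools were closer: 5 of 8 genes were lower in pool 2, where 54.1% of all tested genes were, the median difference was -0.07 beside -0.01, and 0 of 8 passed 1.5-fold, where 1.11% did. With 1 array per pool these gaps have no test. Without control pool 2 the log2 difference between fluoxetine and control was -0.20 for Lct and -0.20 for Prox1, and without control pool 1 it was 0.73 and 0.54. For Dsp it was -2.07 without control pool 2 and -1.52 without control pool 1.

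**Figure D3:**
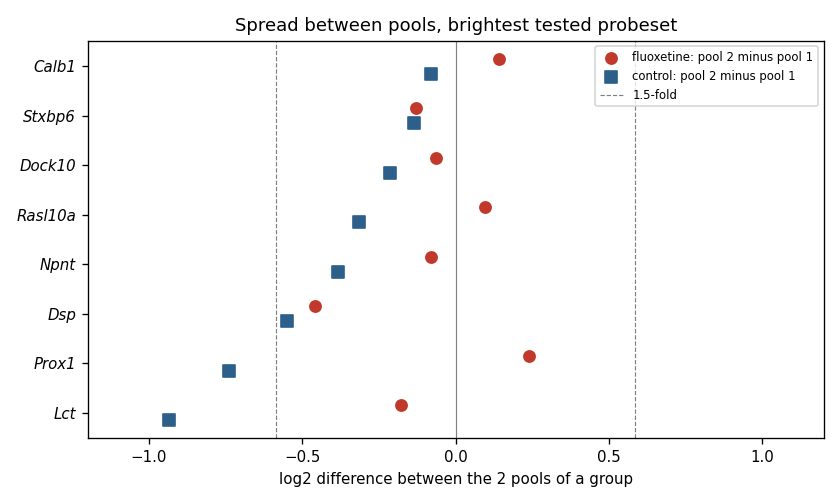
Log2 difference between pool 2 and pool 1 of the same group (x axis) for the 8 tested marker genes at their brightest probeset (y axis), fluoxetine as red circles and control as blue squares, with dashed lines at 1.5-fold. All 8 control differences lie below 0 and those of Lct and Prox1 pass the line, while the fluoxetine differences lie on both sides of 0.

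Tdo2 and Il16 were under the intensity minimum on every array. Tdo2 encodes tryptophan 2,3-dioxygenase, which opens the ring of tryptophan at the entry of the kynurenine pathway and is a marker of mature granule cells in the mouse. Its brightest probeset (1419093_at) had 23.5 and 17.0 in fluoxetine and 46.4 and 25.2 in control pools. The groups did not overlap, but both lie far under 100, and no fold is given. The other 2 Tdo2 probesets lay between 4.80 and 5.31. Il16 encodes pro-interleukin 16, whose neuronal form is a PDZ-domain scaffold protein. Its brightest probeset (1417391_a_at) read 84.5 and 69.9 in fluoxetine and 91.0 and 84.8 in control pools, and the next (1448686_at) 24.7 and 25.0 in fluoxetine and 36.7 and 26.3 in control pools. The remaining 2 lay between 4.95 and 6.26. Neither gene entered the main comparison, so a difference in either was not tested there.

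The genes whose values over the 4 arrays lay nearest to Calb1 were found by the Euclidean distance between log2 values centred on each gene's mean, over 9029 genes, which with 4 arrays is a description only. They were Dcc, the netrin receptor (distance 0.03), and Ezh1, a histone methyltransferase (distance 0.04). Dcc had 481 and 517 in fluoxetine and 713 and 670 in control pools. For Dsp the same measure gave Gabrd and Psrc1, but both were under 100 in both fluoxetine pools, so their distance to Dsp is not known and none is given. None is given for Tdo2, which was under 100 on all arrays. Psrc1 had 82.8 and 73.6 in fluoxetine and 173 and 186 in control pools. Its fold was at least 1.79-fold lower (adjusted p = 0.0262 by limma). Gabrd and Psrc1 reached 100 only in control pools, so they entered the test through the group where they were high.

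Other genes enriched in dentate granule cells did not share 1 direction either. In this and the other gene lists each gene was counted at its brightest tested probeset. Some genes are on more than 1 list, so the list counts are not separate. Drd1 is counted among both the immature granule cell and the striatal genes. Calb2 is counted among the immature granule cell, mossy cell, thalamic and EF-hand calcium sensor genes. Neurod6 is on the immature granule cell and CA pyramidal lists, and Neurod1 on the immature granule cell and Prox1 lists. Pvalb is on the interneuron and EF-hand lists, and Kl on the choroid plexus and glycosidase lists. The members are also on the lists of their own families and partners. Of 17 tested genes on the list of other dentate granule cell genes 1 rose and 1 fell. A log2 fold change above 0 was found for 8 of them and below 0 for 9. Their median was -0.00, beside -0.03 over all tested genes. Gabrd, the delta subunit of the extrasynaptic GABA-A receptors of granule cells, had 89.3 and 68.1 in fluoxetine and 178 and 168 in control pools, so it fell at least 1.73-fold (adjusted p = 0.0460 by limma). Bdnf, the brain-derived neurotrophic factor, rose by 2.16 ± 0.07 on the log2 scale (adjusted p = 0.00614 by limma). The secreted C1q-like protein gene C1ql2 stood at 303 and 263 in fluoxetine and 153 and 112 in control pools (log2 1.11 ± 0.17, adjusted p = 0.0636 by limma), and Grp, gastrin-releasing peptide, at 2940 and 3468 in fluoxetine and 1578 and 1855 in control pools (log2 0.90 ± 0.13, adjusted p = 0.0536 by limma). Neither passed. C1ql3, a close relative of C1ql2, was at log2 -0.00 ± 0.09. Ahcyl2 did not pass at its brightest probeset, but 1 of its 3 tested probesets fell (log2 -0.56 ± 0.07, adjusted p = 0.0445 by limma).

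On the list of immature granule cell genes 2 of 15 tested genes rose and 0 fell by limma, with a median of 0.14. These were Sox11, a transcription factor of newborn neurons (606 and 596 in fluoxetine, 259 and 259 in control pools), and Drd1, the dopamine D1 receptor gene (484 and 458 in fluoxetine, 126 and 160 in control pools). For Sox11 4 of 5 tested probesets passed, and for Drd1 1 of 2. Doublecortin (Dcx), the usual protein marker of the immature cell, had 182 and 221 in fluoxetine and 231 and 255 in control pools (log2 -0.28 ± 0.12, adjusted p = 0.266 by limma), and Calb2, calretinin, had 513 and 495 in fluoxetine and 376 and 424 in control pools (log2 0.34 ± 0.09, adjusted p = 0.126 by limma). Neither passed, nor did the cytoskeletal genes Marcksl1 (log2 -0.49 ± 0.10) and Tubb2b (log2 0.43 ± 0.07), and Eomes and Igfbpl1, which mark neuronal progenitors and neuroblasts, were under 7 on all arrays. Of 4 tested mossy cell genes 1 rose, the galanin precursor Gal, with 353 and 201 in fluoxetine and 22.5 and 19.4 in control pools, at least 2.67-fold (adjusted p = 0.0262 by limma).

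**Figure D4:**
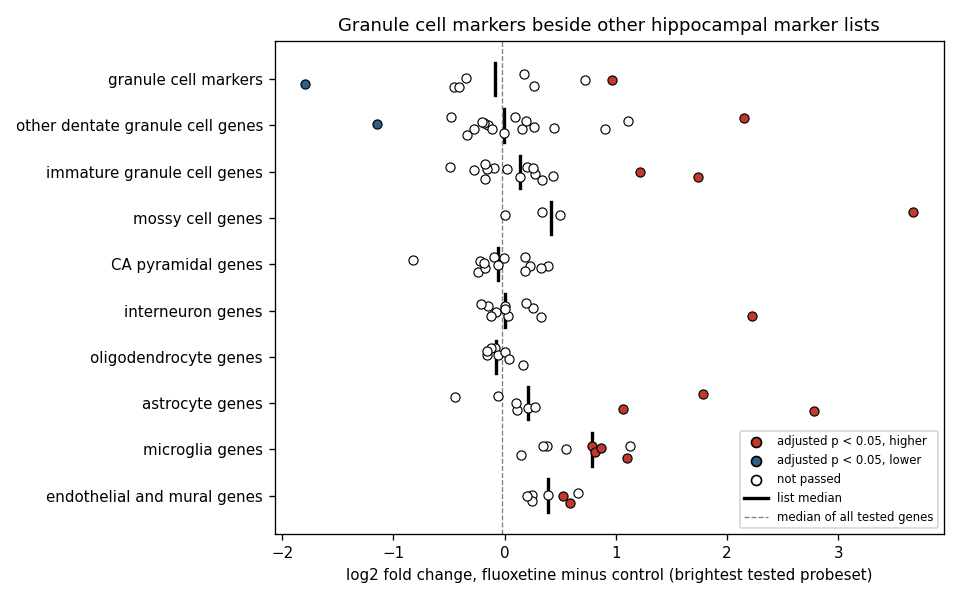
Log2 fold change (fluoxetine minus control, x axis) of each tested gene at its brightest probeset in 10 marker lists (y axis), 1 point per gene, with thick bars at list medians and a dashed line at the median of all tested genes. The marker genes and the other dentate granule cell genes spread to both sides of 0, while all 9 microglia genes and all 7 endothelial and mural genes lie above 0. Gal, the point farthest right among the mossy cell genes, is drawn at its measured value although its control pools were under 100, as are Flt1 (control pools) and Gabrd (fluoxetine pools).

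Family members and functional partners of the markers mostly did not pass. Among 16 tested EF-hand calcium sensors and buffers 0 passed by limma in either direction at the brightest probeset, and the median was -0.08. Calb1, one of them, passed at the dimmer probeset given above. Besides Calb1 the largest differences were those of Kcnip3 (log2 0.50 ± 0.16, adjusted p = 0.177), which encodes a calcium sensor and potassium channel subunit, and its relative Kcnip2 (log2 -0.43 ± 0.09, adjusted p = 0.0967). Parvalbumin, Pvalb, was at -0.15 ± 0.07 (adjusted p = 0.270). Of 8 tested desmosome and plakin genes only Dsp passed. Macf1 (log2 -0.22 ± 0.07, adjusted p = 0.164) and the desmosomal cadherin gene Dsg2 (log2 -0.20 ± 0.25, adjusted p = 0.674) did not pass. Perp did not pass either and was at least 1.03-fold lower, with 95.1 and 71.4 in fluoxetine and 104 and 101 in control pools. The plakoglobin gene Jup, a direct partner of desmoplakin, was not tested, with 40.3 and 47.7 in fluoxetine and 34.6 and 36.1 in control pools. The desmosomal genes Pkp1, Pkp3 and Dsc2 were under 20 on all arrays. Pkp2 and Pkp4 were bright and did not pass. Pkp2 had 1176 and 1441 in fluoxetine and 1757 and 1225 in control pools (log2 -0.17 ± 0.20, adjusted p = 0.650 by limma). Pkp4 was at log2 -0.04 ± 0.07 (adjusted p = 0.766 by limma).

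Of 6 tested Dock genes 0 passed by limma. Dock11 and Dock9 are relatives of Dock10. Dock11 was at log2 -0.40 ± 0.15 (adjusted p = 0.223 by limma), with 318 and 300.2 in fluoxetine and 473 and 352 in control pools. Dock9 was at -0.01 ± 0.11 (adjusted p = 0.968 by limma). Of 8 tested syntaxin-binding and SNARE genes 0 passed. Stxbp6 had the largest difference, followed by Stxbp5l, a tomosyn gene (log2 0.23 ± 0.12), and Snap25 lay at -0.02 ± 0.06. Of 10 tested Ras-like GTPase genes 1 rose, Rasl10a itself. Its closest relative Rasl10b was at -0.16 ± 0.07 (adjusted p = 0.273), and Rasd1, a dexamethasone-induced GTPase, had 156 and 163 in fluoxetine and 289 and 202 in control pools (log2 -0.60 ± 0.18, adjusted p = 0.159).

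Among 6 tested genes around nephronectin 0 passed. The receptor subunit gene Itga8 was at log2 -0.35 ± 0.11 (adjusted p = 0.176) and Itgav at 0.40 ± 0.07 (adjusted p = 0.0672), and Itgb1 was at 0.07 ± 0.16. Of 11 tested genes of Prox1 and hippocampal cell fate 0 passed by limma, with a median of -0.06. The homeobox gene Emx2 had 91.1 and 79.0 in fluoxetine and 132 and 115 in control pools, at least 1.23-fold lower, which did not pass (adjusted p = 0.0943), and Nfia was at -0.37 ± 0.08 (adjusted p = 0.0892). Neurod1, a proneural factor that granule cells need, was at -0.10 ± 0.07 (adjusted p = 0.489).

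Around interleukin 16, Cd9, a tetraspanin described as an Il16 receptor on immune cells, rose with 1783 and 1559 in fluoxetine and 982 and 982 in control pools (log2 0.76 ± 0.09, adjusted p = 0.0427), the only call among 5 tested genes. The classical receptor gene Cd4 was under 10 on all arrays. Of the kynurenine pathway, serotonin synthesis and monoamine oxidase genes only Kyat1, Maoa and Maob were bright enough to test, with 0 calls by limma. Ido1, Ido2, Kmo, Kynu and Haao were under 10 on all arrays, as Tph1 and Tph2 were. Of 3 tested glycosidase genes 0 passed, Lct and Gba2 (log2 -0.21 ± 0.09) among them.

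Among markers of the other cells in the tissue, some lists held calls and others held 0. Of 13 tested CA pyramidal genes 0 passed by limma, with a median of -0.06, summed intensities of 20333 and 21588 in fluoxetine pools and 22356 and 20650 in control pools, and a median of -0.20 between control pool 2 and pool 1. Fibcd1 had the lowest log2 value there (log2 -0.82 ± 0.25, adjusted p = 0.162), whereas Wfs1, another CA1 marker, was at 0.22 ± 0.16 (adjusted p = 0.454). Of 11 tested interneuron genes 1 rose, Npy, and of 8 oligodendrocyte genes 0 passed. Of 9 tested microglia genes 4 rose, with summed intensities of 7292 and 7106 in fluoxetine and 4549 and 4455 in control pools, among them C1qb and Tyrobp. Of 9 astrocyte genes Gfap, Vim and Aqp4 rose at their brightest probeset and Slc1a2 at 1 of its 2 dimmer ones. The other 6 did not pass at their brightest probeset. Of the 9 genes 7 had a log2 fold change above 0 and 2 below, with a median of 0.21. Fgfr3 was the lowest, with 1555 and 1318 in fluoxetine and 1896 and 1994 in control pools (log2 -0.44 ± 0.10). The astrocyte sums were 66647 and 66810 in fluoxetine and 51861 and 52692 in control pools. Of 7 endothelial and mural genes Rgs5 and Abcc9 rose, with sums of 4931 and 4850 in fluoxetine and 3559 and 3532 in control pools. Of 6 tested meningeal and fibroblast genes Col3a1 rose, at least 2.31-fold with both control pools under 100. It was thus tested only through its fluoxetine pools. In that list 4 genes had a log2 fold change above 0 and 2 below. Ptgds was the lowest, with 8821 and 5295 in fluoxetine and 10285 and 15944 in control pools (log2 -0.91 ± 0.32), and did not pass. Of 4 tested striatal genes Penk and Drd1 rose, while Pde10a was at -0.00 ± 0.18. Of 3 thalamic genes 0 passed. Lymphocyte and blood lists had 0 tested genes, with Cd3e, Cd79a, Alas2 and Hba-a1 under 6 on all arrays. Only 2 of the 5 blood genes, Hba-a1 and Alas2, had a probeset with 1 symbol, so the Hbb genes were not read. Ptprc, the brightest of the lymphocyte list, had 59.7 and 51.8 in fluoxetine and 27.3 and 17.0 in control pools and was not tested. The choroid plexus gene Ttr, a sign of neighbouring tissue, followed the pool number, at 51101 and 4429 in fluoxetine pools 1 and 2 and 37856 and 2002 in control pools 1 and 2. The part of these cell types in the fold changes of the granule cell markers was not tested.

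Array medians over all probesets lay between 22.6 and 23.3. On both fluoxetine arrays all 18 hybridisation spike-in probesets read higher than on either control array, by a median of 0.36 on the log2 scale, while the median over tested probesets was -0.04. The labels give no hybridisation or scan order, so a batch that ran with the groups cannot be told apart from treatment.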

How the data were processed

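Each array has 1 linear intensity per probeset in the deposited table, which the authors computed with GCRMA (ArrayAssist software, per the labels' design text). In GCRMA the background correction uses the probe's sequence, and dim probesets end near a common floor. Software versions and the scan order are not given in any source used here. Groups and pool numbers come from the sample titles.

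Values were taken to log2 with no further normalization and no pseudocount. The 64 Affymetrix controls were left out, and 16938 probesets that reached 100 on at least 2 of 4 arrays entered limma 3.58.1 under R 4.3.3 (lmFit and eBayes, two-sided, without covariates). P-values were adjusted over all of them by Benjamini-Hochberg, at a threshold of 0.05. Group means are geometric. Errors after ± are limma's standard errors, and intervals cover 95%. Where all arrays of 1 group were under 100, a fold was taken against 100 and is a lower bound. Where such a probeset was tested, it met the filter only through its other group. Its call and p-value are therefore not independent of the filter. Genes were named from the platform annotation where a probeset had 1 symbol (34958 probesets). Of these 34754 were found by gene number in the RefSeq table, with 0 changed symbols. The brightest probeset of a gene is the tested one whose mean log2 value is highest, and probesets ending in _s_at can match related transcripts.

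The members and gene lists were chosen with earlier results of these data known, and no set test was made. Every member probeset is described. From other lists, genes were named among the called genes, those with the largest differences and dim defining markers, but not all of these were named. Calb2 was named outside this rule. Pvalb, C1ql3, Ahcyl2, Slc1a2, Flt1, Dcx, Itgb1, Snap25, Wfs1, Dock9, Neurod1, Rasl10b, Pde10a, Pkp2, Pkp4 and Ptprc were added after their values were seen. The procedure was tested on simulated data.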

Additional observations from a re-analysis of the deposited data

How the results depend on the processing

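Directions of the tested marker genes held under most of the 14 other fits, and calls held under fewer. Median centring, quantile normalization, a pseudocount of 32 and a minimum of 100 in all 4 arrays left 1 marker probeset called higher and 3 called lower by limma. A floor of 100 left 2 lower, as did leaving out probesets ending in _s_at and _x_at, and trend and robust settings gave 5 lower (532 probesets called in all, against 291), with all 3 Calb1 probesets among them. With no intensity filter limma called 0 probesets in all and 0 of the markers in either direction (5396 of 45037 with an unadjusted p under 0.05, 10 of them markers), and with a minimum of 50 it called 16 in all and 0 of the markers. More probesets were tested in both settings. With any 1 array left out it called 0 in all and 0 of the markers (2657 to 3515 with an unadjusted p under 0.05), and the lone array was then assumed to vary like the other group. With the pool number as a replicate block it called 9 in all and 0 of the markers (3621 with an unadjusted p under 0.05). The numbers are not stated to pair the pools, and the correlation of the pool difference between groups was 0.14 over tested probesets. Without control pool 2 the direction turned for both Prox1 probesets (-0.20 for 1437894_at and -0.34 for 1457432_at on the log2 scale) and for Lct (-0.20), whose values with 1 array left out ran from -0.20 to 0.54, from -0.34 to 0.64 and from -0.20 to 0.73. The dimmer Stxbp6 probeset, 1425749_at, at -0.04 in the main comparison, turned to 0.0031 with quantile normalization and ran from -0.0891 to 0.0032 with 1 array left out, the highest without fluoxetine pool 2. Taken as a mean over tested probesets, Calb1 stood at -0.87 and Stxbp6 at -0.20, beside -0.45 and -0.35 at the brightest. No other setting turned a direction, and 4 of 8 genes were below 0 at their brightest probeset in every setting but the one without control pool 2, with 6. The number of arrays limits the precision, and Tdo2 and Il16 fell under the intensity minimum of the main comparison.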
